A study of Mus musculus with 12 samples.

Results

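The LIM homeobox genes examined were Lhx1, Lhx2, Lhx3, Lhx4, Lhx5, Lhx6, Lhx8, Lhx9, Isl1 and Isl2. These 10 genes were found by symbol among 21631 protein-coding genes of the RefSeq annotation of GRCm38 (mm10) on chromosomes 1 to 19 and X, and all 10 are autosomal. A peak belonged to a gene when it overlapped the gene body extended by 2 kb on both sides, called the window here. The mark was trimethylation of histone H3 at lysine 27 (H3K27me3), mapped by CUT&RUN, in which an antibody tethers a nuclease that cuts out the chromatin around its target. The cells were suspensions of epidermis from female mice of 2 genotypes. Utx-cKO animals were Cre+; Utx fl/fl, so Krt14-Cre deletes Utx (Kdm6a), an H3K27 demethylase gene, in keratin-14 expressing tissue, while cells of other lineages in the suspension retain it. WT animals were Cre-; Utx fl/fl and thus carry the same floxed alleles without the recombinase. The labels give 3 H3K27me3 libraries and 3 IgG libraries per genotype, and no age. The data used were 1 list of SEACR peaks per genotype, called on the merged libraries, with 8914 peaks in Utx-cKO and 7826 in WT. No value here therefore has a replicate error or a p-value, and sequencing depth is unknown. Fewer cells carrying the mark and less mark per cell cannot be told apart in such pools, and the lists cannot check the deletion of Utx.

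LIM homeobox proteins are transcription factors that join LIM zinc finger domains, which bind partner proteins such as LDB1, to a DNA-binding homeodomain. They act in the specification of neurons, limbs, kidney, pituitary and gonads, and their genes are classic targets of Polycomb complexes, which lay down H3K27me3, in cells where they are silent. LHX2 has a known role in skin, where it is a transcription factor of hair follicle stem cells, and ISL1 is found in Merkel cells, the touch receptor cells of the epidermis. Mammalian Polycomb domains commonly form over CpG-rich promoters.

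Every LIM homeobox gene carried H3K27me3 in both genotypes. All 10 had a peak in the Utx-cKO list (95% exact Clopper-Pearson interval 69.2 to 100%, counting error only), where 17.6% of 20665 autosomal protein-coding genes had one. All 10 also had a peak in the WT list, where 16.1% of autosomal protein-coding genes did, and 14.6% had one in both lists. The genes rested on 10 Utx-cKO peaks with a summed length of 388950 bp and on 12 WT peaks with 354150 bp, and no peak was shared by 2 of the genes. Of the Utx-cKO length, 89.4% lay in a WT peak, and of the WT length 98.0% lay in a Utx-cKO peak. Over all autosomal peaks these shares were 69.5% and 75.4%. This background was not matched on signal, and the peaks of the 10 genes were strong, with a median percentile by total signal of 98.8 in Utx-cKO and 97.5 in WT.

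The peaks covered most of each gene. The window was more than 50% covered in all 10 genes in both lists, against 6.02% (Utx-cKO) and 5.5% (WT) of autosomal protein-coding genes. The median covered share of the 10 windows was 99.8% in Utx-cKO and 87.1% in WT, while autosomal genes with any peak had medians of 29.4% and 29.7%. In Utx-cKO 5 windows lay wholly in peaks (Lhx1, Lhx2, Lhx5, Lhx6 and Isl1), and in WT 4 did (Lhx1, Lhx6, Lhx9 and Isl1). Among autosomal genes with a peak, 12.8% (Utx-cKO) and 12.4% (WT) were wholly covered. Long genes are harder to cover, and the background was not matched on gene length.

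**Figure D1:**
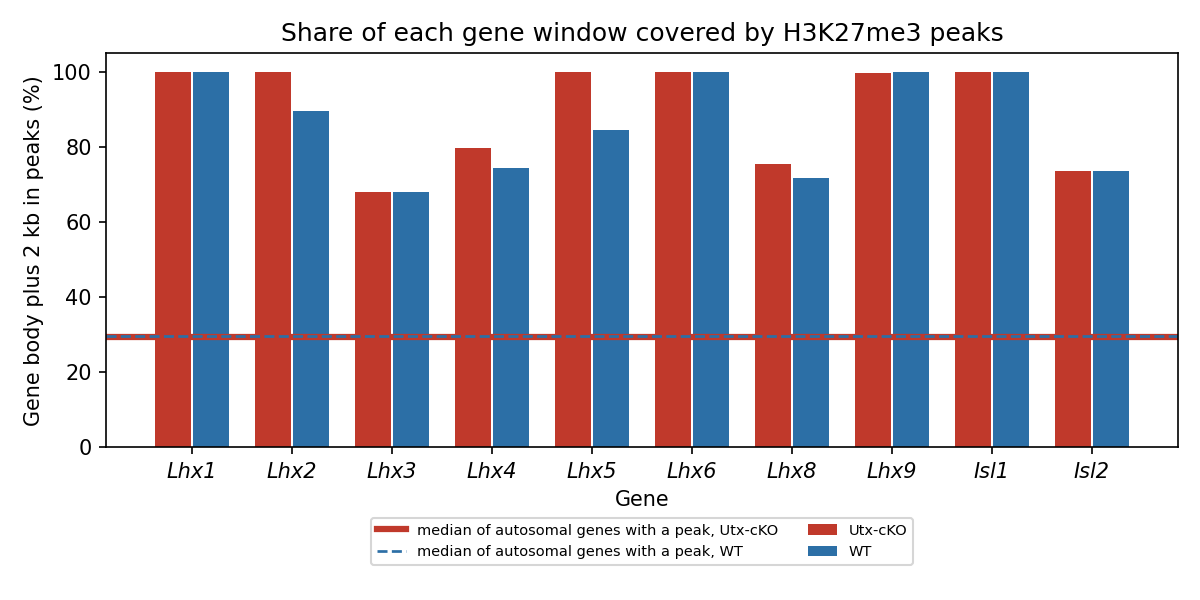
Percent of each gene body plus 2 kb that lies in H3K27me3 peaks, per gene, with the Utx-cKO list in red and the WT list in blue. The horizontal lines are the medians of autosomal protein-coding genes with a peak (29.4% in Utx-cKO, solid, and 29.7% in WT, dashed), and every bar stands above them, the lowest being Lhx3 at 68.0% in both lists.

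Lhx2, the hair follicle stem cell gene, had the longest H3K27me3 domain of the 10 genes in both lists, and the lists divided it differently. Lhx2 lies on the plus strand at chr2:38339271-38369737. In Utx-cKO a single peak of 76000 bp (chr2:38299951-38375950) covered the gene and 2 kb on both sides completely. In WT the gene carried 2 peaks, of 27200 bp (chr2:38321051-38348250) and 57600 bp (chr2:38351851-38409450), which together covered 89.6% of the window. The part of the gene outside WT peaks was a gap of 3600 bp inside the gene (chr2:38348251-38351850), and it was wholly covered in Utx-cKO. RefSeq gives Lhx2 a pair of promoters, and the downstream one, with its start at 38351308, fell inside that gap, 543 bp from the nearest WT peak border. The upstream start at 38339281 lay in a peak in both lists. When peaks less than 5 kb apart were joined, the Lhx2 window was 100% covered in both lists, so the contrast rests on whether this gap counts as one.

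The Lhx2 promoters are shown because the lists differ over one of them. They are given 5′ to 3′ on the plus strand, from 250 bases before to 50 after the start (RefSeq, GRCm38.p6), with each CG in capitals. The upstream promoter is at chr2:38339031-38339330 and the downstream one at chr2:38351058-38351357.
Lhx2 upstream promoter: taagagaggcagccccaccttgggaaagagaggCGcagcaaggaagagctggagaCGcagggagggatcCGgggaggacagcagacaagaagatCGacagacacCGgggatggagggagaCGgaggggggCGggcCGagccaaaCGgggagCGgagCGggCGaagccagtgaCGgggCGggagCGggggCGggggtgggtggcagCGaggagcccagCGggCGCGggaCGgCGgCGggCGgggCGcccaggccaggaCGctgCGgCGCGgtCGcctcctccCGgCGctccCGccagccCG
Lhx2 downstream promoter: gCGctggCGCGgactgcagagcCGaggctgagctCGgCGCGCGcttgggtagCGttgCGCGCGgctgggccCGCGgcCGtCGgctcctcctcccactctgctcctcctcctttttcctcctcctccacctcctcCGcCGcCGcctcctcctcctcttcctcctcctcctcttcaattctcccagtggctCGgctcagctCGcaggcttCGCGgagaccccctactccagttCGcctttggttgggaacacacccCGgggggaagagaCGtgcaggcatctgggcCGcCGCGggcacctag
Both are CpG-rich, with 34 CG upstream and 29 CG downstream, where the median RefSeq promoter had 7.0.

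The flanks of Lhx2 also differed in where peaks were divided. From chr2:38299951 to 38428900 the Utx-cKO list held 2 peaks with 1 gap of 3450 bp, which began 6213 bp beyond the gene's downstream border. From chr2:38290451 to 38428950 the WT list held 4 peaks with gaps of 10750, 3600 and 6750 bp. Each of the 3 WT gaps was wholly covered by a Utx-cKO peak, and the Utx-cKO gap was wholly covered by a WT peak. Counting all peaks at the locus, 81.1% of the length of the Utx-cKO peak at Lhx2 lay in WT peaks, and 95.9% of the WT length lay in Utx-cKO peaks. Breaks of this kind were not rare. Of autosomal gaps of 3600 bp or less, 35.6% in Utx-cKO and 35.3% in WT were wholly covered in the other list, and 17.2% in Utx-cKO and 17.3% in WT held a RefSeq start.

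**Figure D2:**
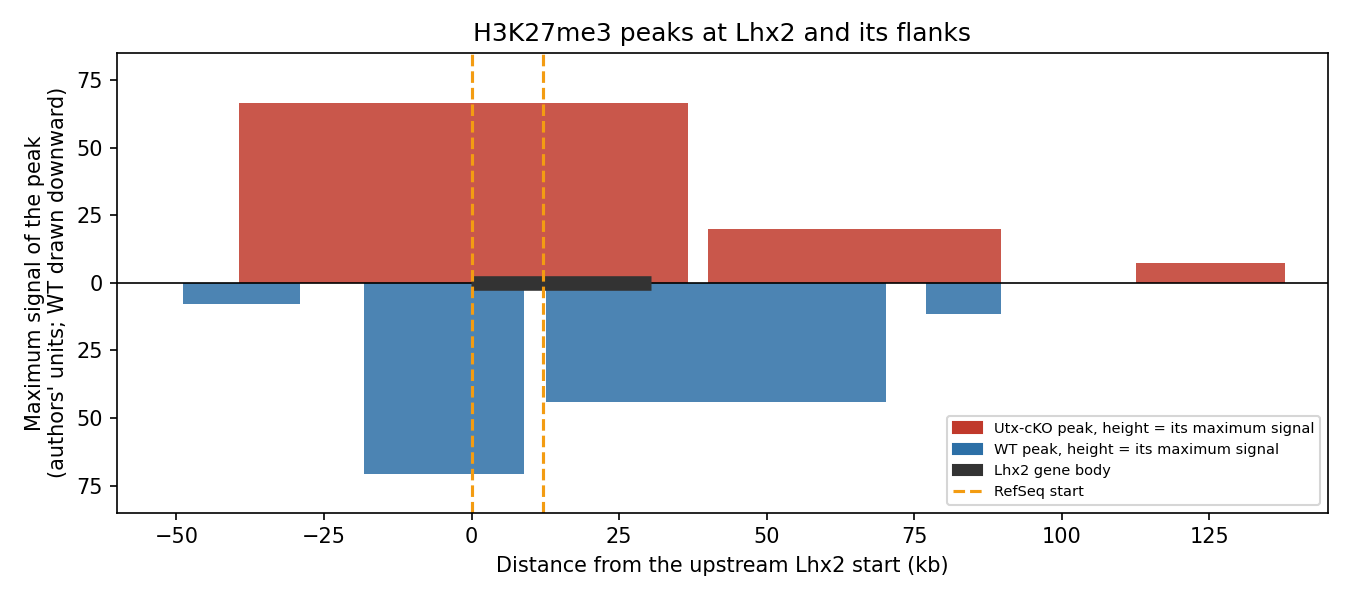
H3K27me3 peaks at Lhx2 and its flanks, by distance in kb from the upstream start. Each block spans 1 peak and its height is the peak's maximum signal in the authors' units (Utx-cKO upward, WT downward), so it shows no shape within a peak. The Utx-cKO block of 76000 bp spans the whole gene, while the downstream start (dashed line) falls between the WT blocks.

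Set against the other 9 genes, Lhx2 stood out by length and not by height. Its Utx-cKO peak of 76000 bp compared with 17300 to 53500 bp for the others (median 33850 bp), and the 84800 bp of its WT peaks compared with 17350 to 44550 bp (median 31200 bp). Lhx2 thus ranked first of 10 by length in both lists. Maximum signal is the highest coverage in a peak in the authors' units, whose scale is unknown, so ranks were taken within each list only. The highest maximum at Lhx2 was 66.6 in Utx-cKO, rank 7 of 10, where the others had 55.4 to 96.9, and 70.9 in WT, rank 5 of 10, where the others had 51.6 to 89.0. Mean signal, the total signal per base of peak, was 12.4 at Lhx2 in Utx-cKO (rank 8, others 9.92 to 30.9) and 11.7 in WT (rank 9, others 10.4 to 28.2). Averaged over its peaks, the Lhx2 domain was therefore the longest and among the 3 least dense of the group in both lists. Its Utx-cKO mean still stood at percentile 95.3 of all peaks in that list. The WT average joins unlike peaks, with means of 17.7 upstream and 8.80 downstream, where the peak reached 39713 bp beyond the gene. By share of window covered, Lhx2 was tied with 4 other genes at 100% in Utx-cKO and had rank 5 in WT.

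**Figure D3:**
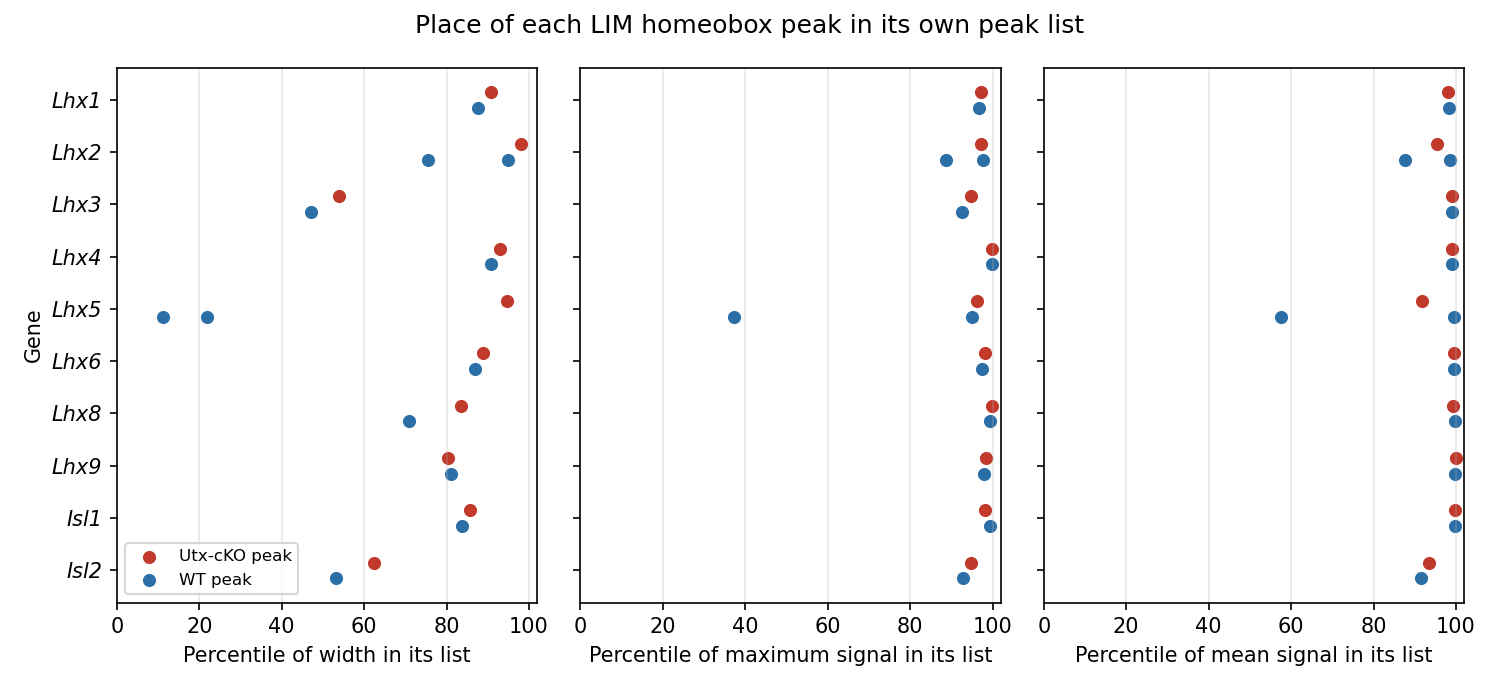
Percentile of each LIM homeobox peak within its own list of all peaks, chromosome X included, by width, maximum signal and mean signal (Utx-cKO red, WT blue, 1 point per peak). Maximum and mean signal crowd at the upper end apart from the weaker WT peak of Lhx5 (percentile 37.3 by maximum), while widths spread from percentile 11.2 to 98.0.

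All 10 Utx-cKO peaks lay above percentile 90 of their list by maximum signal, as did 10 of the 12 WT peaks. The exceptions in WT were the downstream Lhx2 peak, at percentile 88.8, and the weaker Lhx5 peak. By total signal, 9 of 10 Utx-cKO peaks and 8 of 12 WT peaks stood at percentile 95 or higher. These percentiles place a peak within 1 list and show no change between lists. The lists include chromosome X, while all 10 genes are autosomal. Median maximum signal was 12.85 over the whole Utx-cKO list and 14.99 over its autosomal peaks, and 13.76 and 16.87 in WT. Percentiles among autosomal peaks alone were not computed.

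Lhx5, which acts in the forebrain, was the other gene that carried 1 peak in Utx-cKO and 2 in WT. Its Utx-cKO peak spanned 53500 bp (chr5:120405201-120458700) and covered the window completely. Its WT peaks spanned 10100 bp (chr5:120428051-120438150) and 12550 bp (chr5:120440251-120452800), covering 84.5%, with a gap of 2100 bp inside the gene. The WT peaks were unequal, with maximum signals of 59.4 and 11.2. A further WT peak of 37250 bp ended 2500 bp short of the first, so that 80.4% of the Utx-cKO peak lay in WT peaks. That WT peak in turn covered a gap of 3600 bp between the Utx-cKO peak and the next one (chr5:120401601-120405200), so at Lhx5, as at Lhx2, each list had a break that the other lacked. Inside the windows the breaks were in WT. The arrangement of 1 Utx-cKO peak with at least 2 WT peaks, found in 2 of 10 genes here, was seen in 5.38% of autosomal protein-coding genes marked in both lists, and the reverse, 1 WT peak and at least 2 Utx-cKO peaks, in 7.37%. None of the 10 genes showed the reverse. Lhx1, the close relative of Lhx5 that acts in kidney and cerebellum, had 1 peak in each list, of 42400 bp in Utx-cKO and 38750 bp in WT, starting at the same base (chr11:84513701) and reaching the neighbouring noncoding gene Lhx1os.

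Among the genes of pituitary and motor neuron development, Isl1 had the highest mean signal in both lists and Isl2 the lowest, and Lhx3 had no peak called at its 5′ end. Lhx4 had the highest maximum of the 10 genes in WT, at 89.0, and the next to highest in Utx-cKO, at 91.8, and the maximum fell in the same 50 bp in both lists (chr1:155744251-155744300). Mean signal at Lhx4 was 20.3 in Utx-cKO and 20.4 in WT. Its peak of 47950 bp in Utx-cKO and 44550 bp in WT left the 3′ end of the gene outside peaks, with 79.8% and 74.3% of the window covered. Isl1, a motor neuron, heart and Merkel cell factor, was wholly covered, by 33850 bp in Utx-cKO and 34000 bp in WT, with maximum signals of 72.5 and 81.5. Isl2, its relative in motor neurons and retinal ganglion cells, was less densely marked. Mean signal at Isl2 was 10.9 in Utx-cKO and 10.4 in WT, still at percentiles 93.5 and 91.4 of all peaks in these lists, against 28.2 (Utx-cKO) and 27.2 (WT) at Isl1. Its peaks covered the start and stopped short of the gene's end at the same base in both lists (chr9:55546250).

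Lhx3, the partner of Lhx4 in the pituitary, was the one gene whose starts lay outside peaks in both genotypes, among the 9 with a promoter entry. The start of Lhx5 was not assessed. Its peak spanned 17300 bp in Utx-cKO (chr2:26189101-26206400) and 17350 bp in WT (chr2:26189051-26206400), covering 68.0% of the window in each. The gene is on the minus strand, so the border at 26206400 faces its starts at 26206575 and 26208249. It lay 175 bp and 1849 bp inside the gene from them. The body and 3′ flank of Lhx3 were thus marked at mean signals of 20.8 in Utx-cKO and 19.8 in WT, with no peak called at the 5′ end. Signal outside peaks was not examined and the calling threshold is unknown, so an absence of the mark at these starts is not shown.

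Lhx6 and Lhx8, which act in forebrain interneurons or cholinergic neurons and in tooth development, held ranks 3 and 4 by mean signal in both lists. Lhx8 held the highest maximum of the group in Utx-cKO, at 96.9, and had 83.6 in WT. Its peak of 31500 bp in Utx-cKO, against 24600 bp in WT, extended 5850 bp further beyond the start. Lhx6 lay wholly in peaks of 38350 bp in Utx-cKO and 37600 bp in WT, with the same lower border (chr2:36078301), and these reached its neighbour Morn5 in both lists and Rbm18 in Utx-cKO. Lhx9, a gonad and limb gene, had the highest mean signal of the 10 in both lists, 30.9 in Utx-cKO and 28.2 in WT, on peaks of 28550 and 31200 bp. It was the only one of the 10 with a smaller covered share in Utx-cKO than in WT, 99.6% against 100%. In Lhx2, Lhx4, Lhx5 and Lhx8 the covered share was larger in Utx-cKO, by 3.71 to 15.5 percentage points, and in the other 5 genes it was the same.

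**Figure D4:**
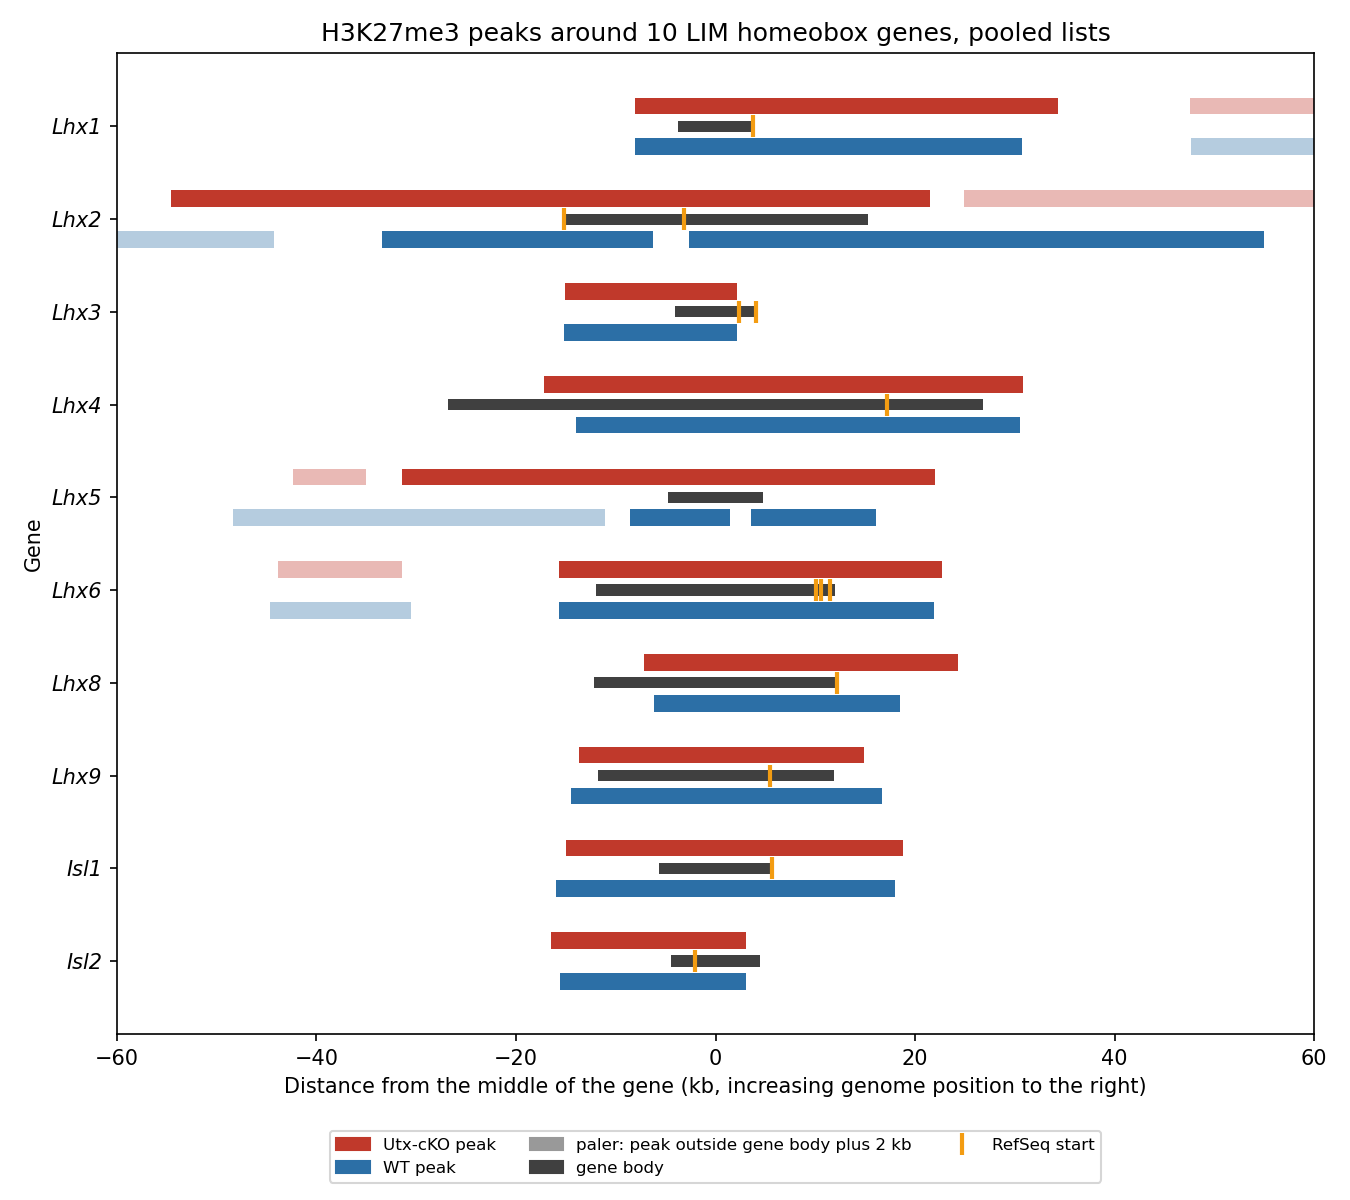
Peaks of the Utx-cKO list (red, above) and the WT list (blue, below) around each gene body (dark bar), by distance from the middle of the gene in kb, with RefSeq starts as orange ticks. Peaks outside the gene body plus 2 kb are paler. Lhx2 and Lhx5 each have 1 red and 2 full blue peaks, and the peaks of Lhx3 end before its starts.

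Peak borders were close between the lists for the other genes. Of the 8 genes with 1 peak in each list, 4 (Lhx1, Lhx3, Lhx6 and Isl2) had a border at the identical base, on the 50 bp grid of the files. Over 4534 autosomal pairs of peaks that overlapped 1 to 1, 20.4% had an identical border. The median shift of a border was 800.0 bp in these 8 genes and 1450.0 bp over all such pairs, which were not matched on signal. Reach to other protein-coding genes was absent for 8 of 10 Utx-cKO peaks and 10 of 12 WT peaks. Peaks at Lhx1, Lhx2, Lhx5 and Lhx8 did overlap noncoding genes in both lists, such as Lhx1os and AI606473. The share of all peaks that reach no second gene was not computed.

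Promoter sequences were matched for 9 of the 10 genes, with 13 promoters in all, and Lhx5 had no entry. Of these, 11 lay wholly in a Utx-cKO peak and 10 in a WT peak, where 10.8% (Utx-cKO) and 10.2% (WT) of all RefSeq promoters did. Those shares include chromosome X, while the 13 promoters are all autosomal. The promoters outside peaks were both of Lhx3 in each list and, in WT, the downstream one of Lhx2. The 13 promoters held a median of 19 CG (range 4 to 37) and a median CpG observed over expected ratio of 0.678, against 7.0 CG and 0.387 over 32609 RefSeq promoters. CG number did not sort the covered from the uncovered ones. Lhx8, whose start lay in a peak in both lists, had the fewest, while the Lhx3 promoter nearest to its peak had 28 CG and lay in none.

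These promoters show the range. All are 5′ to 3′ on the minus strand with each CG in capitals. Isl1 (chr13:116309639-116309938) has the most CG and a covered start, Lhx8 (chr3:154330511-154330810) the fewest and a covered start, and the downstream Lhx3 promoter (chr2:26206526-26206825) is CpG-rich with an uncovered start.
Isl1 promoter: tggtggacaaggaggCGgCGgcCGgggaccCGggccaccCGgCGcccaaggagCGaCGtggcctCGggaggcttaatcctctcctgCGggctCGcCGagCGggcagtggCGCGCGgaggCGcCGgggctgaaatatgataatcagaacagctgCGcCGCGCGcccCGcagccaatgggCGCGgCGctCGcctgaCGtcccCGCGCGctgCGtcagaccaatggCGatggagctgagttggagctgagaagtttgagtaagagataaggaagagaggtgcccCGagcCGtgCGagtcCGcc
Lhx8 promoter: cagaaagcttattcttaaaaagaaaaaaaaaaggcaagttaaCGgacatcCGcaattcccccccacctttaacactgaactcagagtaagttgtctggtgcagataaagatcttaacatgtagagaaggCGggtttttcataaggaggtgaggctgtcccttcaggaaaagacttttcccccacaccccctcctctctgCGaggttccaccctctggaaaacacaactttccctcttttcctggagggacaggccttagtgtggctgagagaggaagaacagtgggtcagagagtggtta
Lhx3 downstream promoter: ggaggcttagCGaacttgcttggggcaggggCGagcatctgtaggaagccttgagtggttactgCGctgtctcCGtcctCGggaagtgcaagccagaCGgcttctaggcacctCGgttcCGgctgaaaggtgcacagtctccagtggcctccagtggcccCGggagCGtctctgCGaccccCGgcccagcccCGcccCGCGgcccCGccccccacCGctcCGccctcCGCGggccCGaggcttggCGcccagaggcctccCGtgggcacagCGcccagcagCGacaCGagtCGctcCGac
A search of both strands found CGCG in 11 of the 13 promoters (38.3% of all RefSeq promoters), the GC box GGGCGG in 7 (35.9%) and CCAAT in 6 (37.6%). TATAAA was in 2, the upstream one of Lhx3 and the most downstream one of Lhx6 (13.7%). The motif TAATTA, of the kind LIM homeodomains bind, was in none (5.25%). CGCG and GGGCGG both contain CG, and a match is a description of letters and not a binding site.

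**Figure D5:**
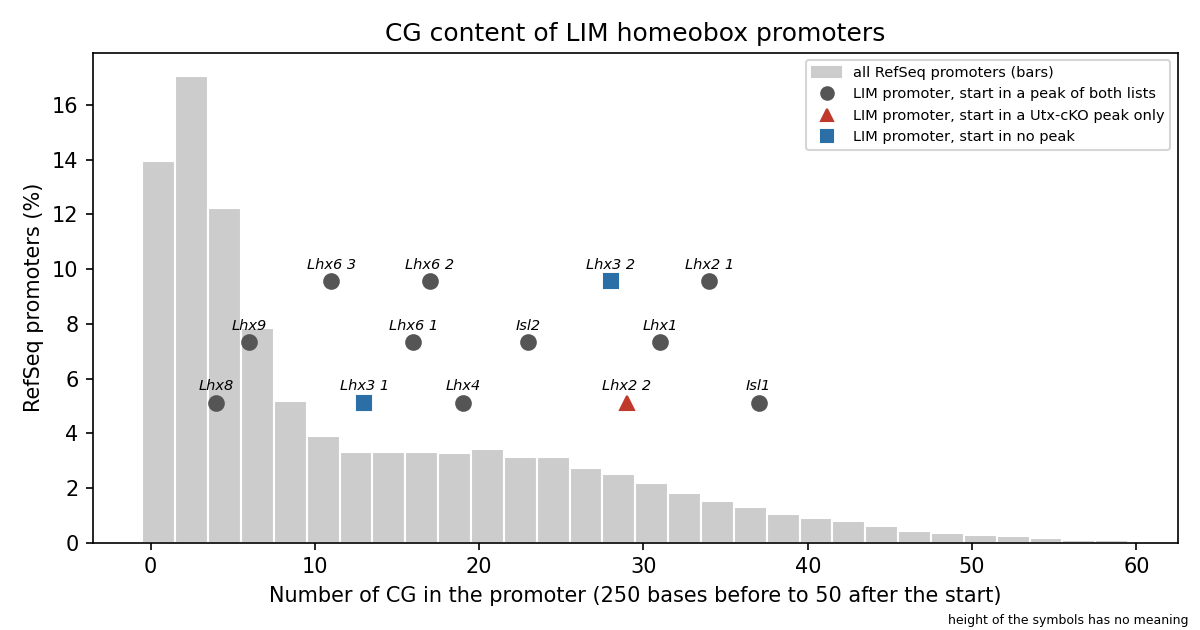
Number of CG per promoter for all RefSeq promoters (grey bars, percent of promoters) and for the 13 LIM homeobox promoters (symbols, whose height has no meaning). Promoters of 1 gene are numbered from the upstream one. The uncovered Lhx3 promoters (squares) and the Lhx2 promoter covered in Utx-cKO alone (triangle) lie among the covered ones (circles).

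Of 12 other LIM homeobox, LIM-only and LIM cofactor genes, the same 5 had a peak in each list: Lmx1a, Lmx1b, Lmo2, Lmo3 and the X-linked Rlim. The background was 17.6% (Utx-cKO) and 16.1% (WT) of autosomal protein-coding genes, and the difference from the 10 genes was not tested. Being autosomal, this background does not apply to Rlim. The median covered share of the 12 was 0% in both lists. Lmx1a, a midbrain dopamine neuron factor, was 23.4% covered in Utx-cKO and 23.3% in WT, and Lmx1b, a limb and kidney factor, 62.4% and 50.3%. Lmo2, a blood cell factor, was wholly covered in both. The adaptor genes Ldb1 and Ldb2, and Ssbp2, Ssbp3 and Ssbp4, whose products stabilise LDB proteins, had no peak in either list, nor did Lmo1 and Lmo4.

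Lhx2 was more fully covered than the other transcription factors of hair follicle stem cells that were listed. Of 10 such genes, 6 had a peak in both lists (Sox9, Tcf7l1, Foxc1, Tbx1, Runx1 and Gata3), with covered shares of 8.90 to 83.6% in Utx-cKO and 20.9 to 72.2% in WT, against 100% and 89.6% for Lhx2. The direction was mixed among them. The share was larger in Utx-cKO at Tbx1 (83.6% against 30.1% in WT, the largest shift), Foxc1 (71.8% against 33.0%) and Tcf7l1 (43.0% against 33.8%). It was smaller in Utx-cKO at Gata3 (8.90% against 20.9%) and Runx1 (47.3% against 49.2%), and the same at Sox9. None of 7 keratinocyte markers (Krt5, Krt14, Itga6, Itgb4, Trp63, Krt1 and Krt10) had a peak in either list. Of 7 Merkel cell markers, Isl1 among them, 6 had a peak in each list, and Krt20 had none. The neighbours Krt8 and Krt18 had identical peak percentiles in each list, so they appear to share 1 peak and are not separate counts. Peaks were found in both lists at 2 of 6 melanocyte, 3 of 4 immune, 2 of 3 fibroblast, 0 of 2 endothelial and 1 of 2 neuronal markers, and the part of each cell type in the pools was not tested. Among autosomal protein-coding genes, 17.6% had a peak in Utx-cKO, 16.1% in WT and 14.6% in both lists. The counts for these short marker lists were not tested against those shares.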

How the data were processed

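H3K27me3 CUT&RUN peaks of 2 genotypes were analysed. The deposited lists are SEACR calls (spelt SECAR there), 1 per genotype, on the merged libraries of that genotype, per the file headers. Beside its position each peak has a pair of score values, as deposited by the authors. They were taken to be total signal (summed coverage) and maximum signal, from the usual layout of the caller's output, since the columns are unnamed. The scale of these scores, and the mode, control and threshold of the caller, are not stated in the labels or headers. Builds (mm10, GRCm38, sacCer3) and tools (Bowtie2 2.3.4.3, bedtools 2.27.1, SAMtools 1.9, deepTools) are named in the submitters' processing notes without their roles. IgG libraries and single animals were not analysed here.

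Genes, promoters and starts came from RefSeq (GRCm38.p6). Overlap meant at least 1 bp, and percentiles are ranks within a list. Calculations used Python 3.11.15, numpy 2.4.6, pandas 2.3.3 and scipy 1.17.1, and the overlap code was tested on simulated intervals. With 1 pooled list per genotype no test between genotypes was possible. The genes, lists and comparisons were chosen with earlier results of these data known, and all 10 genes were to be named. Protein sequences, planned at first, were not used here. Other gene windows, peak thresholds and joining of near peaks were tried.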

Additional observations from a re-analysis of the deposited data

How the results depend on the processing

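All 10 genes kept a peak in each list with the gene body alone, with 5 kb added, with a floor of total signal common to both lists, with only the upper 50% of each list by total signal, with a maximum signal at or above the list median, with peaks less than 5 kb apart joined, and when a shared peak had to overlap by 1 bp. When 50% of both peaks had to overlap, 8 genes counted as shared. Around start sites (2 kb on both sides, 9 genes with a strand), all 9 had a peak in each list. At Lhx2 the covered share in Utx-cKO was 100% under each alternative for which it was computed. A smaller share than in WT was therefore not possible, and its absence says nothing about the direction.

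The difference at Lhx2 (10.4 percentage points) was 11.8 for the gene body alone, 8.90 with 5 kb added, 31.8 around start sites, where WT covered 68.2%, and 0 with near peaks joined, where WT covered 100%; joining fills the 3600 bp gap by construction. The median of the other 9 genes (99.6% in Utx-cKO, 84.5% in WT) became 100% in Utx-cKO for the gene body alone and 84.8% with 5 kb added. Around start sites it was 100% in both lists, which put Lhx2 in WT (68.2%) below that median and not above it. With near peaks joined it was 100% in WT, above the 99.6% in Utx-cKO, so the order of the lists turned. It was 74.3% in WT both for the upper 50% by total signal and for the filter on maximum signal, which remove the weaker Lhx5 peak. The mean rank of Lhx2 by covered share (3 in Utx-cKO and 5 in WT) was 3.5, 2 and 4.5 in Utx-cKO for the gene body alone, 5 kb and start sites, and 8 in WT around start sites and 3.5 with near peaks joined. The share of Utx-cKO length lying in WT peaks (89.4%) was 83.5% under both filters on signal.

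No paired analysis was possible because each list pools the animals of its genotype, and for the same reason no animal was left out. The WT values for Lhx2 and Lhx5 depend on gaps of 3600 and 2100 bp, whose calling rests on a depth and a threshold that are not known.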
